A study of Rattus norvegicus with 16 samples.

Results

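Acyl-CoA thioesterases were followed in 16 rat livers, each measured on an Affymetrix array of its own. The rats were males of the inbred F344 strain. The genes considered were Acot1, Acot2, Acot3, Acot4, Acot7, Acot8 and Acot12. A gene was measured where the array's annotation gave a probe set exactly 1 of these symbols, and its value came from the probe set with the highest mean over the 16 arrays. The probe sets were thus chosen by their mean signal and by no difference between groups. By this rule 5 of the 7 genes could be measured, Acot1, Acot2, Acot7, Acot8 and Acot12, out of 13439 genes with such a probe set on the array. Acot3 and Acot4 had none. A pair of probe sets listed both of them, a further one listed Acot2 with Acot1, and these 3 are described as shared.

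The rats were 4 weeks old when they were divided into groups of 4 and were reared for 3 weeks. Hydrogen CDAA rats ate the CDAA diet, which lacks choline and supplies defined L-amino acids, drank water with 0.7 mM dissolved hydrogen and breathed air with 2% hydrogen. Control CDAA rats ate the CDAA diet in plain air. Hydrogen normal rats ate basal rodent chow with the same hydrogen water and air, and control normal rats ate the chow in plain air. All controls drank the electrolysed water after it had been stirred in the open until the hydrogen was gone. The CDAA diet is a rat model of fatty liver that later becomes fibrotic. Its feed differs from the chow in more than choline, so a diet difference here is one between whole feeds.

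Acyl-CoA thioesterases split an acyl-CoA into a free fatty acid and coenzyme A, and so run against the acyl-CoA synthetases, which join them. The type I enzymes (Acot1 to Acot6) are close relatives that differ mainly in where they sit: Acot1 in the cytosol, Acot2 in the mitochondrial matrix, and, from work in mice, Acot3 and Acot4 in peroxisomes. Acot7, Acot8 and Acot12 belong to the unrelated type II fold. In rat liver the cytosolic and mitochondrial type I enzymes are known for their induction by peroxisome proliferators, drugs that act on the fatty acid receptor PPARα.

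In the current rat assembly (GRCr8) the type I genes lie side by side on chromosome 6, in the order Acot2, Acot1, Rpl23al8, Acot4, Acot3, Acot5 and Acot6, between Riox1 and Dnal1. Acot12 lies on chromosome 2, Acot8 on chromosome 3 and Acot7 on chromosome 5. Promoter windows of 300 bases (250 before to 50 after the start of the gene, RefSeq, GRCr8) were found for all 7 genes. The 3 windows printed here are those of the type I pair measured one by one, which moved together, and of Acot12, which moved the other way. They are chr6:109367024-109367323 for Acot1, chr6:109342590-109342889 for Acot2 and chr2:24721709-24722008 for Acot12, all on the plus strand. Capitals mark a match, on either strand, to the PPARα type of response element, 2 copies of the hexamer AGGTCA in the same orientation with any 1 base (N) between them, with at most 2 mismatches.
Acot1: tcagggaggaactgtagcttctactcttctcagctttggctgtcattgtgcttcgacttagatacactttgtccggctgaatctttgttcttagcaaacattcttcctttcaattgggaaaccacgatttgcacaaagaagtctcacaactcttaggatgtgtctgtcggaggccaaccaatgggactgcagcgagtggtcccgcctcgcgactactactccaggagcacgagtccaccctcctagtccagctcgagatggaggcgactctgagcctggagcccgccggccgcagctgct
Acot2: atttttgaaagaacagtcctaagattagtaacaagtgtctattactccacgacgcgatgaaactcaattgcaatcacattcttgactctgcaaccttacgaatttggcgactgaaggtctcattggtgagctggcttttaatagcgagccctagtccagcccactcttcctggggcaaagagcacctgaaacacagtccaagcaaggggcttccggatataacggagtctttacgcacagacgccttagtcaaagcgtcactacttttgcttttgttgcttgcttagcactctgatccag
Acot12: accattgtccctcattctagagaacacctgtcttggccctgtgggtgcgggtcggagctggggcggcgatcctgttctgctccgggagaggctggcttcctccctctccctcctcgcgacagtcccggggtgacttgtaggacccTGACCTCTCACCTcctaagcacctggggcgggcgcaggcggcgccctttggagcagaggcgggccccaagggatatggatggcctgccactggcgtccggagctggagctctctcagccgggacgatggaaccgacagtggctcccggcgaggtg
The Acot12 window held such a match on the minus strand, TGACCTCTCACCT, which begins 105 bases before the start and has 1 mismatch. Acot8 (GGGTCAGAGGTCA, plus strand, 22 bases before the start) and Acot4 (AGACCTCTGACCT, minus strand, 13 bases before the start) each held a match with 1 mismatch as well. The windows of Acot1, Acot2, Acot3 and Acot7 held none. Over 33469 rat promoter windows of this length, 3.77% held a match with at most 2 mismatches and 0.0538% an exact one. The hexamer by itself, which the element contains, was held by 16.2% of windows, alone or within the element. Of 3 further motifs searched on both strands without mismatches, the TATA box (TATAAA, in 14.2% of windows) was found in the Acot3 window alone, and the cyclic AMP element (TGACGTCA, 1.83%) and the E-box (CACGTG, 6.42%) in none of the 7. The GC content was 53.3% for Acot1, 46.0% for Acot2 and 66.7% for Acot12, against a median of 51.7% over all windows. A match is a run of letters and not a measured binding site.

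Signals are given on the normalised log2 scale of the deposited values, where 1 unit is a doubling. They ran from 2.42 to 13.73, with array medians of 4.33 to 4.37. Precision is limited by there being 4 arrays in a group. A probe set was tested if at least 4 arrays read above a line of 3.67, the value at the 30th percentile of the table. A change was called at an adjusted p under 0.05 (limma, Benjamini-Hochberg over 22765 probe sets). The 5 hepatocyte markers on the array averaged 13.04 to 13.13 in every liver, and of 4 adipocyte markers Adipoq, Plin1 and Lep stayed between 3.36 and 3.91 while Cfd read 6.31 to 7.51, and none of the 3 tested was called for the diet. The control normal liver of replicate 4 stood apart: on a principal component with 66.0% of the variance it lay at -13.45, against -35.10 to -32.28 for the other 3 of its group and 23.85 to 34.59 for control CDAA livers. Diet values in control rats are therefore also given without it for the genes described whose fold it moved more, and smaller shifts are not listed.

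The CDAA diet raised the cytosolic and the mitochondrial type I genes and lowered Acot12. Under hydrogen, Acot1 and Acot2 rose and Acot12 and Acot8 fell, and in control rats Acot1 and Acot2 rose and Acot12 fell. The 2 rises among 5 measured genes stand beside 32.0% of all 11483 tested genes called higher under hydrogen and 27.2% in control rats. The falls (2 under hydrogen, 1 in control rats) stand beside 17.3% and 13.2% called lower. The groups did not overlap for 2 of the 5 genes under hydrogen (43.7% of all genes) and for 3 of 5 in control rats (37.8%). All 5 genes passed the filter on low values, but Acot1 did so through its CDAA arrays, since it exceeded the line on just 1 normal-diet array, and a gene that passes in this way has to differ. A rise of over 2-fold was called for 3.29% of all genes under hydrogen and 2.14% in control rats, and Acot2, above the line in every liver, was among them in both.

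Acot1 (probe set 1398250_PM_at), the cytosolic enzyme for long-chain acyl-CoA, read 8.05, 8.24, 9.59 and 7.94 in the hydrogen CDAA livers and 7.78, 6.46, 6.07 and 5.99 in the control CDAA livers. It read 3.18, 3.23, 2.99 and 3.26 in the hydrogen normal livers and 3.23, 3.40, 2.97 and 3.83 in the control normal livers. Every CDAA liver lay far above every normal-diet liver, where 7 of 8 arrays were at or below the line. Under hydrogen the CDAA diet raised Acot1 at least 27.6-fold, with the line in place of the lower mean (log2 difference 5.29 by the means, 95% interval 4.51 to 6.07, n = 4 per group, limma adjusted p = 1.79e-07). In control rats, where 3 of the 4 normal-diet livers were at or below the line, it rose 9.30-fold by the means (log2 3.22 ± 0.367, SE, n = 4 per group, limma adjusted p = 1.48e-05), or 7.29-fold with the line in place of the lower values. Without the control normal liver of replicate 4, all remaining livers of that group are at or below the line, so the rise in control rats becomes at least 7.49-fold (10.4-fold by the means). Because Acot1 passed the filter through its CDAA arrays, a difference was built in and its adjusted p values are weak support for the rise. With no filter they were 3.12e-07 under hydrogen and 2.36e-05 in control rats (limma).

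Acot2 (1391433_PM_at), the mitochondrial matrix enzyme, read 9.48, 9.71, 10.17 and 9.50 in hydrogen CDAA livers and 9.56, 9.40, 8.87 and 9.35 in control CDAA livers. In hydrogen normal livers it read 7.87, 7.85, 7.76 and 7.92, and in control normal livers 7.93, 7.77, 8.02 and 8.37. On either water the diet groups did not overlap, unlike Acot1 the gene was well above the line in every liver, and its rise was smaller on the log2 scale. The rise was 3.64-fold under hydrogen (log2 1.87 ± 0.161, SE, adjusted p = 8.49e-07, rank 71 of 11483 genes) and 2.42-fold in control rats (log2 1.27 ± 0.161, SE, adjusted p = 3.21e-05, rank 127). Without the control normal liver of replicate 4 the value in control rats was 2.62-fold. The further probe sets of Acot2 were called too: 1384115_PM_at rose 2.93-fold under hydrogen and 2.02-fold in control rats, and 1388210_PM_at rose 3.82-fold and 2.32-fold.

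**Figure D1:**
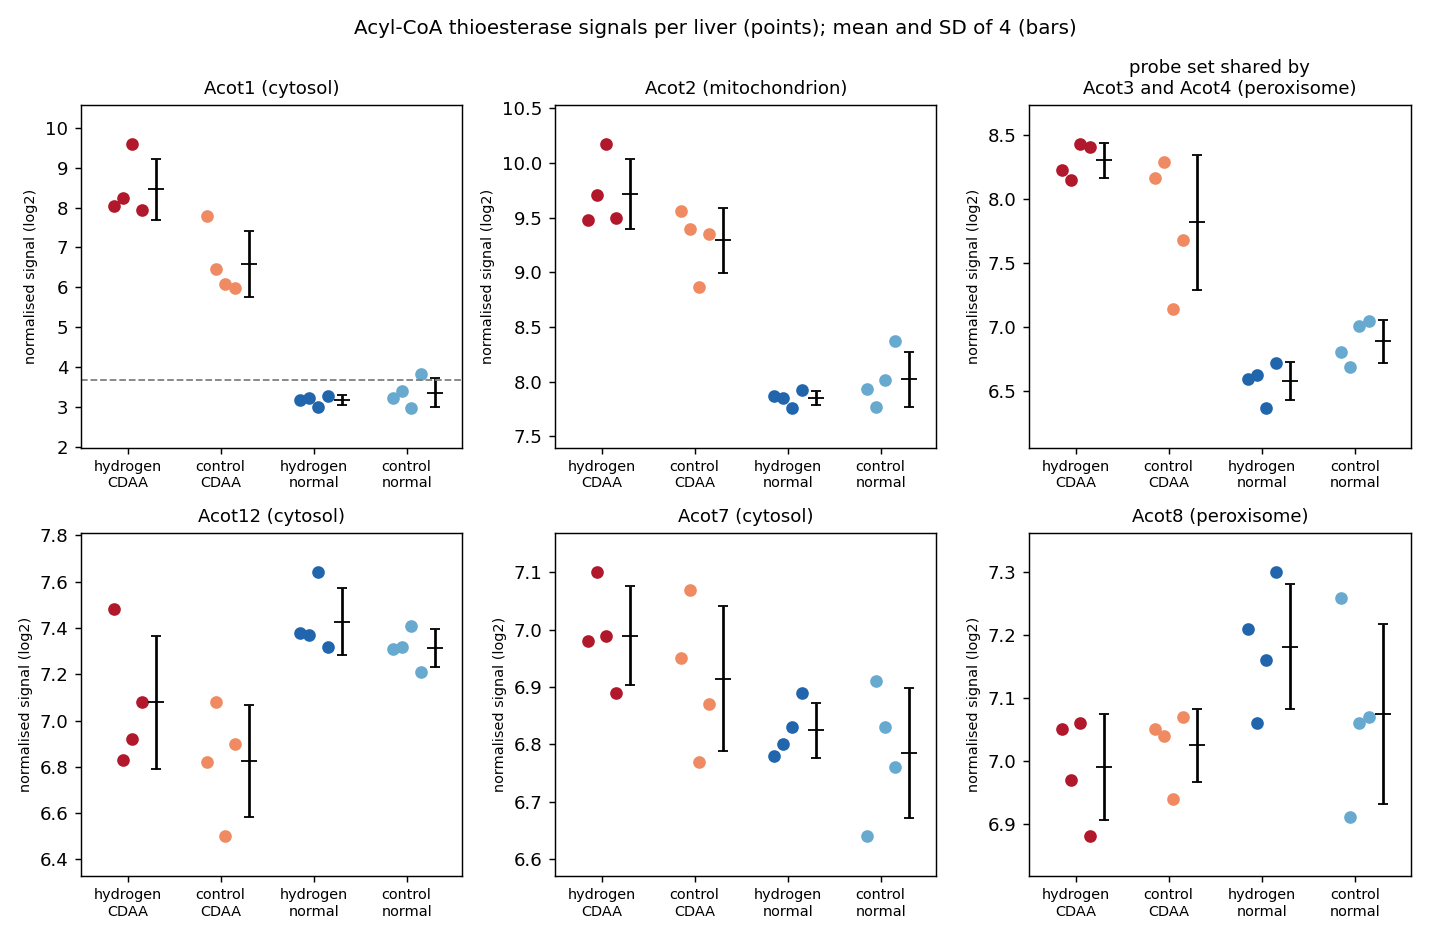
Normalised log2 signal of 5 acyl-CoA thioesterase genes and of 1 probe set shared by Acot3 and Acot4 in each of the 16 livers, 1 panel per gene, with hydrogen CDAA, control CDAA, hydrogen normal and control normal from left to right. Points are livers and bars are the mean and SD of 4, the dashed line in the Acot1 panel is the filter line of 3.67, and the vertical scales differ between panels. Acot1 lies between 5.99 and 9.59 in CDAA livers and between 2.97 and 3.83 in normal-diet livers, while Acot7 and Acot8 stay within 6.64 to 7.30 throughout.

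The shared probe sets rose as well, and cannot be assigned to either gene of a pair. The set that lists Acot2 and Acot1 (1388211_PM_s_at) read 7.27, 7.11, 8.34 and 7.04 in hydrogen CDAA livers and 6.79, 6.42, 5.76 and 5.95 in control CDAA livers. It read 4.99 to 5.25 in hydrogen normal livers and 4.84 to 5.53 in control normal livers, so neither pair of diet groups overlapped. It rose 5.10-fold under hydrogen (adjusted p = 5.34e-06) and 2.06-fold in control rats (adjusted p = 0.00512). Because these genes are near-identical in places, the sets that carry a single symbol may bind RNA of the neighbouring gene, and their values are uncertain to that extent.

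For the peroxisomal pair, the brighter shared set (1377037_PM_at) read 8.23, 8.15, 8.43 and 8.41 in hydrogen CDAA livers and 8.17, 8.29, 7.14 and 7.68 in control CDAA livers. It read 6.60, 6.63, 6.37 and 6.72 in hydrogen normal livers and 6.81, 6.69, 7.01 and 7.05 in control normal livers. All CDAA livers lay above all normal-diet livers, and control CDAA replicate 3, at 7.14, came nearest to them. In mice Acot4 acts on succinyl-CoA and Acot3 on long-chain acyl-CoA. This set rose 3.31-fold under hydrogen (adjusted p = 3.97e-06) and 1.91-fold in control rats (adjusted p = 0.00103). The second set (1378169_PM_at) rose 3.31-fold (adjusted p = 3.50e-06) and 1.93-fold (adjusted p = 0.000791), the same order of size.

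Among the type II genes, Acot12 went down. It encodes the cytosolic acetyl-CoA hydrolase, known from rat liver, which releases acetate. Its probe set (1369485_PM_at) read 7.48, 6.83, 6.92 and 7.08 in hydrogen CDAA livers and 6.82, 7.08, 6.50 and 6.90 in control CDAA livers. It read 7.38, 7.37, 7.64 and 7.32 in hydrogen normal livers and 7.31, 7.32, 7.41 and 7.21 in control normal livers. The control groups did not overlap, whereas under hydrogen 1 CDAA liver at 7.48 lay within the normal-diet range. Acot12 was 1.27-fold lower under hydrogen (log2 -0.35 ± 0.132, SE, adjusted p = 0.0407) and 1.40-fold lower in control rats (log2 -0.49 ± 0.132, SE, adjusted p = 0.00876). The call in control rats held under all 23 other settings tried. The call under hydrogen held under 15 of 23 and was lost without hydrogen CDAA replicate 2, 3 or 4 or hydrogen normal replicate 1, 2 or 3, with adjusted p between 0.0581 and 0.124.

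Acot8, a peroxisomal enzyme of broad substrate range, moved little. Its probe set (1368206_PM_at) read 7.05, 6.97, 7.06 and 6.88 in hydrogen CDAA livers and 7.05, 7.04, 6.94 and 7.07 in control CDAA livers. It read 7.21, 7.06, 7.16 and 7.30 in hydrogen normal livers and 7.26, 6.91, 7.06 and 7.07 in control normal livers, so that in each comparison the groups met or overlapped. It was called 1.14-fold lower under hydrogen (log2 -0.19, 95% interval -0.35 to -0.04, adjusted p = 0.0429). That call held under 12 of 23 other settings and was lost without any 1 of 8 livers (control CDAA replicate 1, control normal replicates 3 and 4, hydrogen CDAA replicates 2 and 4, and hydrogen normal replicates 1, 3 and 4; adjusted p 0.0503 to 0.128). In control rats the log2 difference was -0.05 (adjusted p = 0.631).

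Acot7, best known as the long-chain acyl-CoA thioesterase of brain, was not called on either water. Its probe set (1370313_PM_at) averaged 6.99 ± 0.086 in hydrogen CDAA and 6.92 ± 0.127 in control CDAA livers (SD, n = 4 each). It averaged 6.83 ± 0.048 in hydrogen normal and 6.79 ± 0.114 in control normal livers (SD, n = 4 each). The diet difference was 0.17 log2 under hydrogen (95% interval 0.01 to 0.32, adjusted p = 0.0729) and 0.13 in control rats (-0.02 to 0.28, adjusted p = 0.177). Under hydrogen its sign turned, to -0.007, when quantile normalization was applied again. Its second probe set (1388075_PM_at) lay below the line on all 16 arrays, at 3.28 to 3.63, and was not tested. The neuron markers on the array were also near the line, at 3.67 to 3.90 on average.

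**Figure D2:**
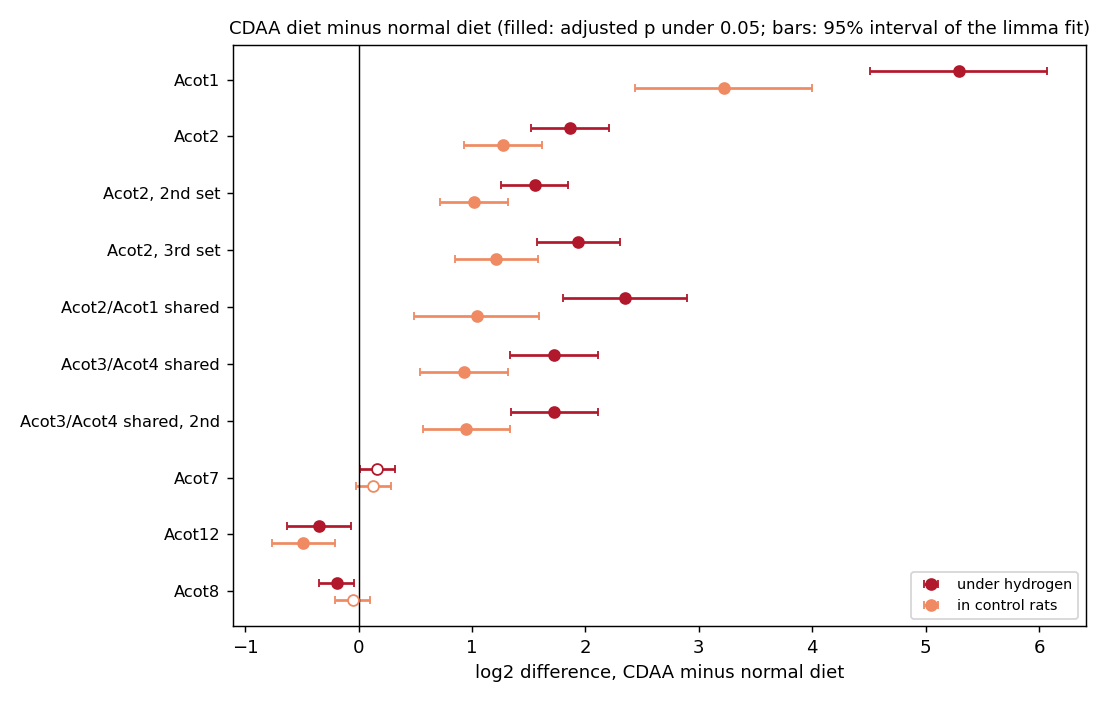
Log2 difference between CDAA and normal diet (horizontal axis) for each tested probe set of the acyl-CoA thioesterases (rows), under hydrogen (dark red) and in control rats (orange); bars are 95% intervals of the limma fit and filled points have an adjusted p under 0.05. All 7 probe sets of Acot1 to Acot4 lie right of 0 on both waters, from 0.93 to 5.29, and Acot12 lies left of it.

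The livers are mixed tissue, so fewer cells of a type and less RNA per cell cannot be told apart in these values. Some markers were called for the diet. Of 5 hepatocyte markers, 1 rose and 1 fell under hydrogen, and 1 rose in control rats. Of 5 macrophage markers measured, 4 rose under hydrogen (32.0% of all genes rose), and in control rats 3 rose and 1 fell (27.2% and 13.2% of all genes). Their mean was 7.71 to 8.19 in hydrogen CDAA and 7.56 to 7.95 in control CDAA livers, against 7.21 to 7.52 in hydrogen normal and 7.01 to 7.74 in control normal livers. Of 5 stellate cell markers, 4 rose under hydrogen and 3 in control rats, with means of 6.50 to 6.71 and 6.23 to 6.50 in CDAA livers against 5.84 to 6.03 and 5.89 to 6.13 in normal-diet livers. Of 3 endothelial markers, 2 rose under hydrogen and 1 in control rats. Of 2 blood cell markers 1 fell under hydrogen and 2 in control rats (17.3% and 13.2% of all genes fell). Of 3 bile duct and 5 lymphocyte markers tested, 1 of each list rose on either water. These counts, and that of endothelial markers in control rats, are near or below the 32.0% and 27.2% of all genes called higher. The part of these cells in the rise of Acot1 and Acot2 was not tested.

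Hydrogen was then compared with control on each diet, the question the series was set up to ask. On the CDAA diet 1 of the 5 measured genes, Acot1, was called higher, where 0.192% of all 11483 genes were called higher and 0.183% lower. Its 4 hydrogen CDAA livers (7.94 to 9.59) lay above the 4 control CDAA livers (5.99 to 7.78) without overlap, as the groups did for 3.75% of genes. The mean was 8.46 ± 0.767 against 6.58 ± 0.829 (SD, n = 4 each), a difference of 3.68-fold (log2 1.88 ± 0.367, SE, 95% interval 1.10 to 2.66, limma adjusted p = 0.0444), rank 2 of 11483 genes. The direction was the same under all 23 other settings, with log2 values from 1.50 to 2.28, but the call was kept under 7 of them (adjusted p 0.00558 to 0.405). The SE and interval of each Acot1 comparison come from the spread of all 4 groups pooled. The normal-diet groups, mostly at or below the line, had smaller SDs (0.121 with hydrogen, 0.361 in controls). For a comparison of CDAA livers the SE and interval are therefore too narrow, and the adjusted p is too small.

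Individual livers decide on which side of the threshold Acot1 falls. Hydrogen CDAA replicate 3, at 9.59, was the highest of its group, and without it the difference was 2.83-fold (adjusted p = 0.0591). Control CDAA replicate 1, at 7.78, was the highest of the controls, and without it the difference was 4.86-fold (adjusted p = 0.00558). Of the 16 fits that leave out a liver, 4 kept the call: those without control CDAA replicate 1 or 2, hydrogen CDAA replicate 4 or control normal replicate 4. When the fit held the 2 CDAA groups alone, the adjusted p was 0.405.

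No other thioesterase was called for hydrogen on the CDAA diet. Acot2 averaged 9.72 ± 0.321 in hydrogen CDAA livers and 9.30 ± 0.297 in control CDAA livers (SD, n = 4 each), and the groups overlapped (log2 difference 0.42, 95% interval 0.08 to 0.76, adjusted p = 0.320). The set shared by Acot2 and Acot1 did not overlap between the groups (log2 1.21, 95% interval 0.66 to 1.76) and missed the threshold at an adjusted p = 0.0707. The intervals of Acot2 and of this shared set also come from the pooled spread. Their SDs were smaller in the hydrogen and control normal groups (0.067 and 0.254 for Acot2, 0.116 and 0.318 for the shared set). These 2 intervals are therefore too narrow for CDAA livers. The sets shared by Acot3 and Acot4 had log2 differences of 0.49 (adjusted p = 0.313) and 0.65 (adjusted p = 0.175). Thus the 7 tested probe sets of Acot1 to Acot4 all had positive differences, between 0.28 and 1.88, with 1 of the 7 called. They share livers and near-identical sequence and so are not separate evidence: hydrogen CDAA replicate 3 was the highest of its group in 7 of the 7 sets and control CDAA replicate 3 the lowest of its group in 6. The type II genes differed by 0.25 for Acot12 (95% interval -0.03 to 0.53), 0.08 for Acot7 (-0.08 to 0.23) and -0.04 for Acot8 (-0.19 to 0.12), on the log2 scale.

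On the normal diet none of the 5 genes was called for hydrogen (limma, 0 called, 0 at an unadjusted p under 0.05), and over all genes 1, or 0.00871%, was called. The differences in log2 were -0.19 for Acot1 (95% interval -0.97 to 0.59, both groups near or below the line), -0.17 for Acot2 (-0.51 to 0.17), 0.12 for Acot12 (-0.16 to 0.39), 0.11 for Acot8 (-0.05 to 0.26) and 0.04 for Acot7 (-0.11 to 0.19). For Acot1 the spread pooled over all 4 groups makes the interval too wide for normal-diet livers. The 7 probe sets of Acot1 to Acot4 were all negative here, from -0.31 to -0.10, with none called. Control normal replicate 4 was the highest of its group in 6 of these 7 sets, and without it the difference was -0.04 for Acot1 and -0.06 for Acot2.

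**Figure D3:**
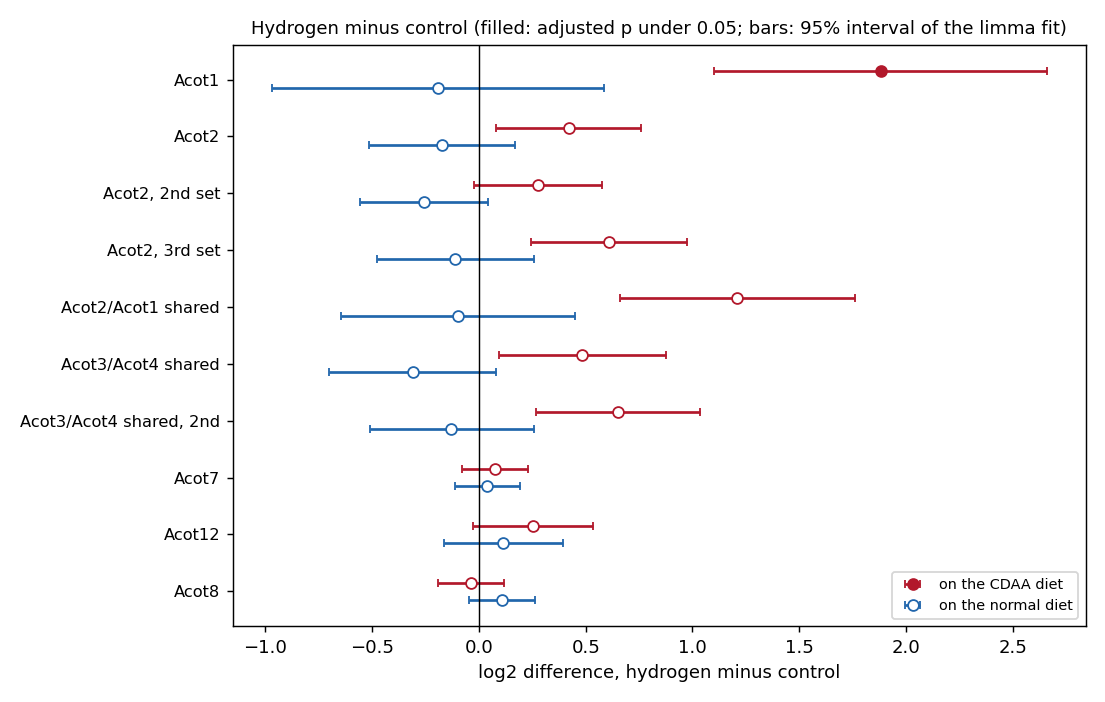
Log2 difference between hydrogen and control (horizontal axis) for each tested probe set of the acyl-CoA thioesterases (rows), on the CDAA diet (red) and on the normal diet (blue); bars are 95% intervals of the limma fit and the filled point has an adjusted p under 0.05. The 7 sets of Acot1 to Acot4 lie right of 0 on the CDAA diet and left of 0 on the normal diet, and Acot1 on the CDAA diet, at 1.88, is the filled one.

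The diets were compared for the effect of hydrogen by a direct test, the interaction. For Acot1 the difference of the differences was 2.07 log2 (SE 0.519, 95% interval 0.97 to 3.17), with a limma adjusted p = 0.289 and adjusted p from 0.157 to 0.457 over the other settings. Its size is uncertain, since 7 of the 8 normal-diet arrays in it were at or below the line. For Acot2 it was 0.59 (95% interval 0.11 to 1.08, adjusted p = 0.470). None of the 5 genes was called (2 had an unadjusted p under 0.05), and 0 of all 11483 genes were called by limma, with 1065 at an unadjusted p under 0.05. The larger diet effect under hydrogen than in control rats is the same quantity, and was not shown at this number of arrays.

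The rest of the pathway went in both directions on the CDAA diet. Of 9 tested genes among 15 further thioesterases, 4 rose and 4 fell under hydrogen (44.4% each, against 32.0% and 17.3% of all genes) and 2 rose and 5 fell in control rats (22.2% and 55.6%, against 27.2% and 13.2% of all genes). Their median log2 difference was -0.17 under hydrogen and -0.25 in control rats, against 0.05 and 0.04 over all genes. Acot9, a mitochondrial relative, rose 3.78-fold under hydrogen (adjusted p = 1.59e-06) and 3.11-fold in control rats (adjusted p = 1.28e-05). Without control normal replicate 4 its rise in control rats was 3.56-fold. Ppt1, the lysosomal enzyme that takes palmitate off proteins, rose 2.00-fold and 1.68-fold. Acot13, a mitochondria-associated type II enzyme, was 1.52-fold lower under hydrogen and 1.50-fold lower in control rats, and Baat, which joins bile acids to glycine or taurine, was 1.39-fold and 1.52-fold lower.

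The acyl-CoA synthetases run the opposite reaction. Of 18 tested, 5 rose and 5 fell under hydrogen (27.8% each, the rises near the 32.0% of all genes and the falls beside 17.3%). In control rats 2 rose and 4 fell (11.1% and 22.2%, against 27.2% and 13.2% of all genes), and the medians were -0.12 log2 under hydrogen and -0.16 in control rats. Acsl1, the main long-chain acyl-CoA synthetase of liver, was 1.49-fold lower under hydrogen (adjusted p = 0.000980) and 1.78-fold lower in control rats (adjusted p = 7.56e-05). Acsm2, a mitochondrial medium-chain synthetase, rose 7.93-fold under hydrogen (adjusted p = 5.91e-06) and 5.60-fold in control rats (adjusted p = 4.99e-05), or 7.21-fold without control normal replicate 4. Acsm5, of the same family, rose 1.22-fold and 1.31-fold.

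Coenzyme A, the other product of these enzymes, is made from pantothenate and taken apart again by hydrolases. Of 15 tested genes of its synthesis and breakdown, 6 rose and 4 fell under hydrogen (40% and 26.7%, against 32.0% and 17.3% of all genes). In control rats 4 rose and 3 fell (26.7% and 20%, the rises near the 27.2% of all genes and the falls beside 13.2%), and the medians were 0.14 log2 under hydrogen and 0.12 in control rats. Vnn1, the pantetheinase that recovers pantothenate, rose 15.1-fold under hydrogen (adjusted p = 1.90e-07) and 7.35-fold in control rats (adjusted p = 5.32e-06), or 9.59-fold without control normal replicate 4. Nudt7, the peroxisomal coenzyme A diphosphatase, rose 1.84-fold and 1.55-fold. The ectoenzymes Enpp1 (1.61-fold and 1.59-fold lower) and Enpp3 (1.53-fold and 1.37-fold lower) fell.

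Acyl-CoA is oxidised in peroxisomes and mitochondria. Of 15 peroxisomal genes, 5 rose and 5 fell under hydrogen (33.3% each, the rises near the 32.0% of all genes and the falls beside 17.3%). In control rats limma called 0 higher (2 at an unadjusted p under 0.05) and 9 lower (60%), against 27.2% and 13.2% of all genes. The median log2 differences were -0.07 and -0.24. Acox2, the branched-chain acyl-CoA oxidase, was 1.93-fold lower under hydrogen (adjusted p = 0.000136) and 2.19-fold lower in control rats (adjusted p = 4.89e-05). Amacr, the racemase of branched-chain acyl-CoA, was 1.53-fold and 1.73-fold lower, and the reductase Pecr was 1.45-fold and 1.39-fold lower. Of 20 mitochondrial genes, 8 rose and 5 fell under hydrogen (40% and 25%, against 32.0% and 17.3% of all genes) and 3 rose and 5 fell in control rats (15.0% and 25%, against 27.2% and 13.2%), with medians of 0.09 and 0.08. Among these, Cpt1b (5.46-fold and 2.37-fold), Hadhb (1.63-fold and 1.48-fold) and Decr1 (1.56-fold and 1.40-fold) rose. Echs1, the short-chain enoyl-CoA hydratase, fell (1.34-fold and 1.30-fold lower).

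PPARα and further genes known as its targets numbered 22 tested, with 7 higher and 6 lower under hydrogen (31.8% and 27.3%) and 7 higher and 4 lower in control rats (31.8% and 18.2%). The shares called higher were near those of all genes (32.0% and 27.2%), the shares called lower stood beside 17.3% and 13.2%, and the medians were 0.16 and 0.09 log2. Cd36, a fatty acid transporter, rose 6.31-fold under hydrogen and 4.85-fold in control rats, and Cidea, a lipid droplet protein, rose 5.91-fold and 3.75-fold. Without control normal replicate 4 the rises in control rats were 6.06-fold for Cd36 and 4.34-fold for Cidea. The ω-hydroxylase Cyp4a1 rose 1.47-fold under hydrogen (adjusted p = 0.000914) and 1.28-fold in control rats (adjusted p = 0.0222). The call in control rats was lost without control normal replicate 4 (adjusted p = 0.0547) or control CDAA replicate 1 or 2 (adjusted p 0.0808 and 0.0637), and without that normal-diet liver 4 genes of this list in place of 7 were called higher. The monoglyceride lipase Mgll was 1.36-fold lower in control rats (adjusted p = 0.000152), and under hydrogen its call at 1.13-fold lower (adjusted p = 0.0444) was lost without any 1 of 10 of the 16 livers.

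**Figure D4:**
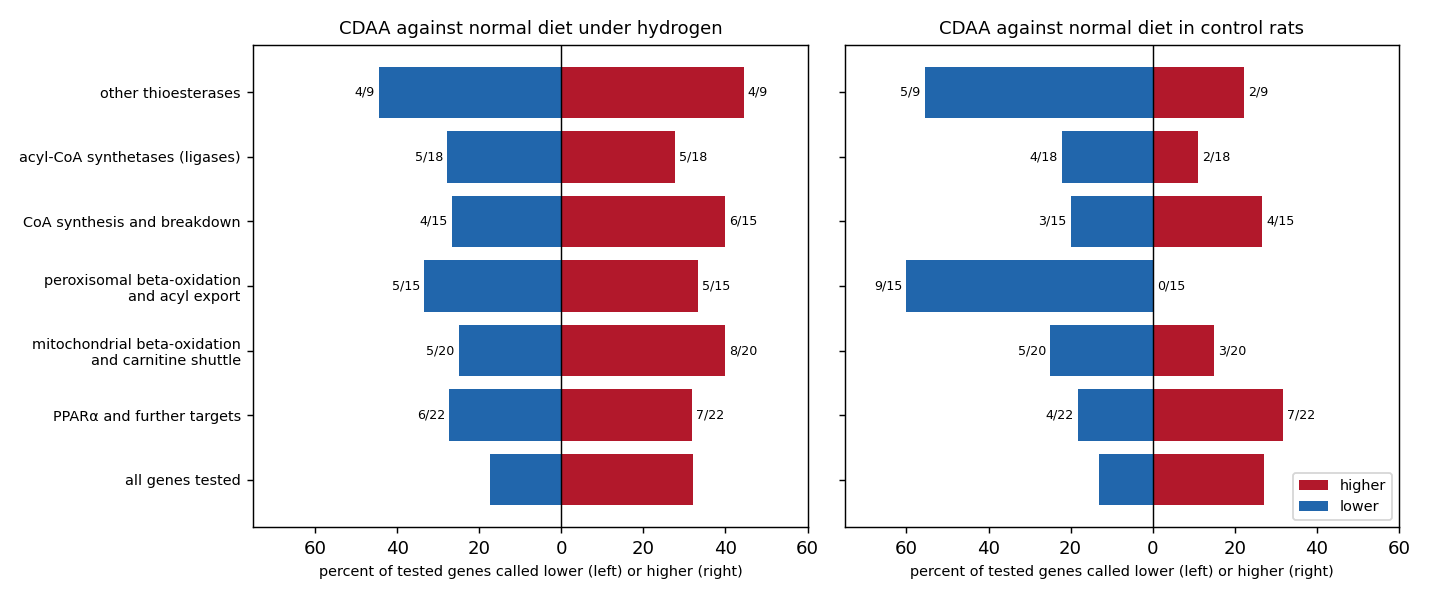
Percent of the tested genes of each list called lower (blue, left) or higher (red, right) on the CDAA diet under hydrogen (left panel) and in control rats (right panel), with the count of the list's tested genes beside each bar; the lowest row is all 11483 genes tested. In control rats 9 of 15 peroxisomal genes were called lower and 0 higher, and under hydrogen 5 were called in each direction.

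For hydrogen on the CDAA diet, 2 of the 99 tested genes of these lists were called, both higher (0.192% of all genes). At an unadjusted p under 0.05 (limma) there were 41 of the 99, a larger share than the 1443 of all 11483 genes. The lists were chosen with earlier results of these data known, and their genes share the same livers. The 41 are therefore not separate evidence, and the lists as such were not tested. Crot, which makes carnitine esters of medium-chain acyl groups for export from peroxisomes, averaged 10.66 ± 0.083 in hydrogen CDAA livers and 10.12 ± 0.226 in control CDAA livers (SD, n = 4 each). The groups did not overlap and Crot was 1.45-fold higher (log2 0.54 ± 0.0863, SE, adjusted p = 0.0132), a call lost when the fit held the 2 CDAA groups alone (adjusted p = 0.311). Crot averaged 10.60 in hydrogen normal and 10.58 in control normal livers. The CDAA diet thus lowered it 1.37-fold in control rats (limma adjusted p = 0.000785), with no call under hydrogen (log2 0.06, adjusted p = 0.589). Cpt1b, the carnitine palmitoyltransferase of muscle mitochondria, read 6.41, 7.11, 6.84 and 6.35 in hydrogen CDAA livers and 6.15, 5.80, 5.49 and 5.33 in control CDAA livers. It was 1.98-fold higher (log2 0.99, adjusted p = 0.0302), and the call was lost without hydrogen CDAA replicate 2 or 3, control CDAA replicate 3 or 4, or hydrogen normal replicate 3, and with the 2 CDAA groups alone (adjusted p = 0.335). On the normal diet and for the interaction 0 of the 99 were called by limma, with 5 and 23 at an unadjusted p under 0.05.

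Genes with the pattern most like each thioesterase were found by the root mean square difference of log2 profiles over the 16 arrays, each centred on its mean, among 11482 other genes. For Acot1 these were Mmp12, the macrophage elastase (0.732, where the spread of Acot1 itself about its mean was 2.288), the fatty acid carrier Fabp4 (0.767) and the lipoprotein lipase gene Lpl (0.840). Mmp12 rose 25.1-fold on the CDAA diet under hydrogen and 12.0-fold in control rats, or 15.6-fold without control normal replicate 4. Fabp4 rose 26.6-fold and 17.5-fold by the means. Without that liver the rise of Fabp4 in control rats was 26.4-fold by the means. It is written as at least 18.5-fold, since the remaining 3 livers of that group were below the line. In the hydrogen comparison on the CDAA diet Mmp12 had a log2 difference of 0.52 (adjusted p = 0.565), Fabp4 of 0.55 (adjusted p = 0.677) and Lpl of 0.59 (adjusted p = 0.347); whether these differ from the value of Acot1 was not tested.

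For Acot2 the nearest genes were Anxa7, an annexin (0.171, against a spread of 0.831 for Acot2), the adhesion molecule gene Vcam1 (0.223) and the tetraspanin gene Cd63 (0.223). They rose 3.49-fold, 3.67-fold and 3.34-fold under hydrogen and 2.73-fold, 2.58-fold and 2.56-fold in control rats. Without control normal replicate 4 the rises in control rats were 3.03-fold, 2.79-fold and 2.96-fold. For Acot12 they were Slc37a4, the glucose 6-phosphate transporter of the endoplasmic reticulum (0.125, against a spread of 0.292), the glutathione transferase gene Gstt2 (0.130) and the retinal reductase gene Dhrs3 (0.134). Dhrs3 was 1.52-fold lower in control rats, and under hydrogen its call at 1.23-fold lower (adjusted p = 0.0192) was lost without hydrogen CDAA replicate 2 or 3 or hydrogen normal replicate 3. Acot7 and Acot8 varied so little (spreads of 0.117 and 0.114) that nearness says less for them. Their nearest genes were Ankrd13a (0.067), Zfp646 and Ttc19 for Acot7 and Nanos3 (0.072), Csnk2b and Srsf10 for Acot8.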

How the data were processed

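Per the labels' protocols, total liver RNA of 16 rats was labelled with a 3' IVT kit and hybridised to RG-230 PM strips of Affymetrix. The authors deposited log2 values, 1 per probe set and array. RMA and the Expression Console of Affymetrix are named in the submitters' processing notes, without a version in the sources used here. RMA makes the arrays' distributions nearly equal, so a shift of all transcripts in a group would not show. Strip and scan batch are not given in the sources used here.

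From these log2 values, limma 3.58.1 (R 4.3.3) fitted a model of 4 group means over all 16 arrays, with eBayes for the moderated statistics. Of 31139 probe sets, 97 array controls were left out, and 22765 exceeded the 30th percentile (3.67) on at least 4 arrays and were tested, while 8277 were not. The Benjamini-Hochberg adjustment ran over all probe sets tested, and every adjusted p in the text comes from limma. The fit was tested on simulated data with known changes and the same spread in every group, so spreads that differ between groups were not covered. Symbols came from the platform annotation: 19069 probe sets had 1 symbol, 572 several and 11407 none. Of those with 1 symbol, 18989 matched the current rat gene table by Entrez identifier, with 0 symbols changed. A gene took its probe set of highest mean. A gene below 3.67 on every array of a group has a fold written as "at least", computed from the line and not from its own signal.

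The genes, the gene lists and the comparisons were chosen with earlier results of these data known. Named by rule were the thioesterases, up to 4 genes of each list called in both diet comparisons with the largest change, up to 2 called for hydrogen, and the 3 genes nearest to each thioesterase in pattern. Not every gene so chosen is described. Separate rats per group are given by the design text. No replicates of a group were near copies: the closest pair differed with an SD of 0.151 log2 over the probe sets tested. Other settings tried were no filter and a stricter one (50th percentile, 16346 probe sets), a further quantile normalization, centring on array medians, eBayes with trend and robust, fits of 2 groups alone, a replicate block, the mean of a gene's probe sets and each liver left out. The fit of list counts without control normal replicate 4 was added after seeing the data. Promoter windows are RefSeq's (GRCr8). Figures used matplotlib 3.10.9 in Python 3.11.15.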

Additional observations from a re-analysis of the deposited data

Results flagged for a closer look

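In 204 groups of 4 livers checked (the probe sets of the thioesterases and the other named genes), 14 livers lay far from the other 3 of their group by Dixon's test, whose critical value is 0.829 for 4 samples. Chance flags about 1 in 20 groups. None of the 14 concerned a probe set of a thioesterase.

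Control normal replicate 4 was far above its group for the fatty acid transporter Cd36 (8.77, others 7.45 to 7.55), the fatty acid carrier Fabp4 (5.54, others 3.05 to 3.23) and the lipase Lpl (5.45, others 4.09 to 4.20), and below it for Mgll (7.46, others 7.63 to 7.64). Hydrogen CDAA replicate 3, the liver with the highest Acot1, was below its group for Pecr (11.01, others 11.27 to 11.32) and Decr1 (10.49, others 10.75 to 10.77) and above it for Crot (10.78, others 10.60 to 10.63).

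The other 7 were spread over livers. Hydrogen CDAA replicate 4 was low for Cd63 (9.82, others 10.22 to 10.28). Control CDAA replicate 2 was high for Mgll (7.33, others 7.07 to 7.10) and Ankrd13a (8.16, others 7.96 to 7.98), and control CDAA replicate 3 was low for Ttc19 (6.83, others 7.07 to 7.08). Hydrogen normal replicate 1 was low for Acox3 (5.47, others 5.63 to 5.64) and Slc37a4 (9.77, others 9.88 to 9.89), and hydrogen normal replicate 2 was high for Lpl (4.08, others 3.86 to 3.89).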

How the results depend on the processing

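The probe sets called numbered 10182 for the diet under hydrogen and 8032 in control rats, and stayed within 1.5 times under the alternatives tried (8860 to 10357 and 6628 to 8443 with a liver left out). The hydrogen counts depended on single livers. On the CDAA diet 71 probe sets were called, with 2 when the fit held those groups alone and 21 (without control CDAA replicate 4) to 346 (without control CDAA replicate 2) with a liver left out. On the normal diet 2 were called, with 4 after median centring, 5 with trend and robust, 17 with those groups alone, 1 with a replicate block and 0 to 11 with a liver left out. For the interaction 1 was called, with 0 with a replicate block and 0 to 21 with a liver left out. Acot2 kept its diet calls under all alternatives. So did Acot1, but it passed the filter through its CDAA arrays, and of these settings only the one with no filter checks that. Of 590 values of the thioesterases under alternatives, 544 kept direction and side of the threshold. Acot1 for hydrogen on the CDAA diet stayed at a log2 difference of 1.88 but lost its call with no filter (adjusted p = 0.0588), with trend and robust (0.0817), with the 2 groups alone (0.405) and with a replicate block (0.0718), and lay between 1.50 and 2.28 with a liver left out. Acot12 for the diet under hydrogen, at -0.35, lost its call with the 2 groups alone and with a replicate block (adjusted p 0.0599 and 0.0563), and lay between -0.48 and -0.27 with a liver left out. Acot8 for the diet under hydrogen lost its call after centring (-0.18), with trend and robust and with the 2 groups alone (-0.19 each), and lay between -0.23 and -0.15 with a liver left out. Small values turned sign: Acot7 for the diet under hydrogen (0.17) was -0.007 after a further quantile normalization and -0.014 as the mean of its probe sets, and its interaction (0.04) was -0.026 and -0.02. With a liver left out these were 0.13 to 0.20 and -0.013 to 0.087. So did, with a liver left out, Acot7 for hydrogen on the normal diet (-0.008 to 0.082), Acot8 for the diet in control rats (-0.105 to 0.012) and Acot8 for hydrogen on the CDAA diet (-0.063 to 0.002). The cause was not tested. Of 1655 values of the other named genes, 1583 kept direction and side and 72 kept the direction and lost the call.

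Replicate numbers recur across groups, but the labels do not say that they mark a shared litter or day, so the numbers were not taken as pairs. Some same-numbered pairs deviated together and some did not. The correlations ran from -0.13 to 0.33 over 24 pairs, 9 of them over 0.1 (for replicates 1 to 4, -0.08, 0.27, 0.33 and 0.19 between hydrogen and control CDAA livers and 0.16, -0.05, 0.12 and 0.13 between hydrogen and control normal livers), and 11 of 16 livers correlated best with their own number, a hint from the data and not from the design. With the replicate block, besides the losses given above, the hydrogen call of Cpt1b was lost (adjusted p = 0.0567). Probe sets near or below the line, as Acot1 was on the normal diet, allow no order among their values.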
